A study of Mus musculus with 3 samples.

Results

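The genes described here are 40 genes of pre-mRNA splicing and its control, followed through 0, 1 and 2 h of isoproterenol (ISO) in immortalized brown adipocytes (iBATs). They are 8 classical SR proteins, 4 SR-like proteins, 6 kinases of SR proteins, the 2 cyclins L with 2 kinases of the RNA polymerase II tail, 5 relatives that carry or bind RS domains, 2 cold-inducible RNA-binding proteins, 6 hnRNP proteins and 5 sequence-specific splicing regulators. The rule names the members by gene symbol and uses no measured value, but the list was drawn up with earlier results of these data known. Of the 40, 38 had a probe set with a single gene symbol and all 38 reached a signal of 100 on at least 1 array, beside 6896 genes read on the whole array. Srsf7 had no probe set under its symbol in the annotation used here. The probe sets of Rbm3 carry several gene symbols, and neither gene was read.

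SR proteins bind exonic enhancer sequences through RNA recognition motifs and recruit the spliceosome through a tail rich in alternating arginine and serine, the RS domain. Kinases of the CLK and SRPK families phosphorylate that tail, which controls where SR proteins sit in the cell and whether they are active, whereas hnRNP proteins often oppose them at neighbouring sites. Cyclins L carry an RS domain themselves, partner with CDK11 and lie in nuclear speckles with the SR proteins. Several SR and CLK genes are known to adjust their own mRNA through alternative exons or retained introns.

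The data are 3 Affymetrix Mouse Genome 430 2.0 arrays, 1 per time point, with no replicate. All 3 were hybridized with labelled cRNA from total RNA of the same line on day 8 of differentiation. Per the methods of the study, differentiation was induced with insulin and indomethacin for 2 days, and the cells were then kept in medium with insulin. The arrays differ in ISO, an agonist of all β-adrenergic receptors, at 0, 1 or 2 h (1 μM per the legends of the study). The line came from the stromal vascular fraction of interscapular brown fat of newborn C57BL/6 mice and was immortalized with the SV40 large T antigen, so the arrays describe 1 line in culture that carries an oncogene at every time point. In bulk RNA, fewer cells of a type and less RNA per cell cannot be told apart.

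All 7 adipocyte markers on the array were read, with Fabp4 at signals of 7490.0, 7871.8 and 7095.6 and Ucp1 at 1485.7, 3673.2 and 4166.1. Of 7 preadipocyte and fibroblast markers on the array 6 were read, with a highest signal of 4557.0 (Col1a2). None of 8 macrophage, 6 endothelial and 7 muscle markers reached 100, with highest signals of 93.2, 9.3 and 77.9.

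Each value is a MAS5 signal as the authors deposited it, on a linear intensity scale, and each gene is read from its probe set with the highest mean signal. A ratio of 2^0.8-fold (1.74-fold), the size used in the study for 1 h, is called a change, and 2^0.4-fold (1.32-fold) is counted as a smaller size. With 1 array per time point neither is a test and no p-value is given. As a scale for each value, the robust spread of the log2 ratio was taken over genes of like signal. It holds real change as well as noise and is no replicate error. Signals of different probe sets depend on their sequences and are not levels that can be ranked between genes.

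Among the 38 genes Ccnl1 alone passed 2^0.8-fold, at 1 h and at 2 h, where 1.58% and 2.73% of all genes read were at least that much higher. None was 2^0.8-fold lower, against 0.218% and 0.812% of all genes. At the smaller size 2 members were higher at 1 h (5.26% of the 38, against 3.89% of all genes) and 5 at 2 h (13.16%, against 7.31%). No member was lower by 2^0.4-fold at either time on its main probe set, where 3.13% and 9.63% of all genes were. At 2 h other kept probe sets of Srsf6 (-0.48) and Hnrnpu (-0.47) were. The shares of all genes were not matched to the members for signal. As a median the members had log2 ratios of 0.04 and 0.10 at the 2 times, beside -0.02 and -0.07 over all genes, and 29 of the 38 lay within 0.2 of 0 at 1 h (73.6% of all genes did). At both times the genes at or above the smaller size were Ccnl1 and Clk1, joined at 2 h by Clk4, Tra2a and Srsf10. Both ratios share the 0 h array, so the 2 times are not independent.

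**Figure D1:**
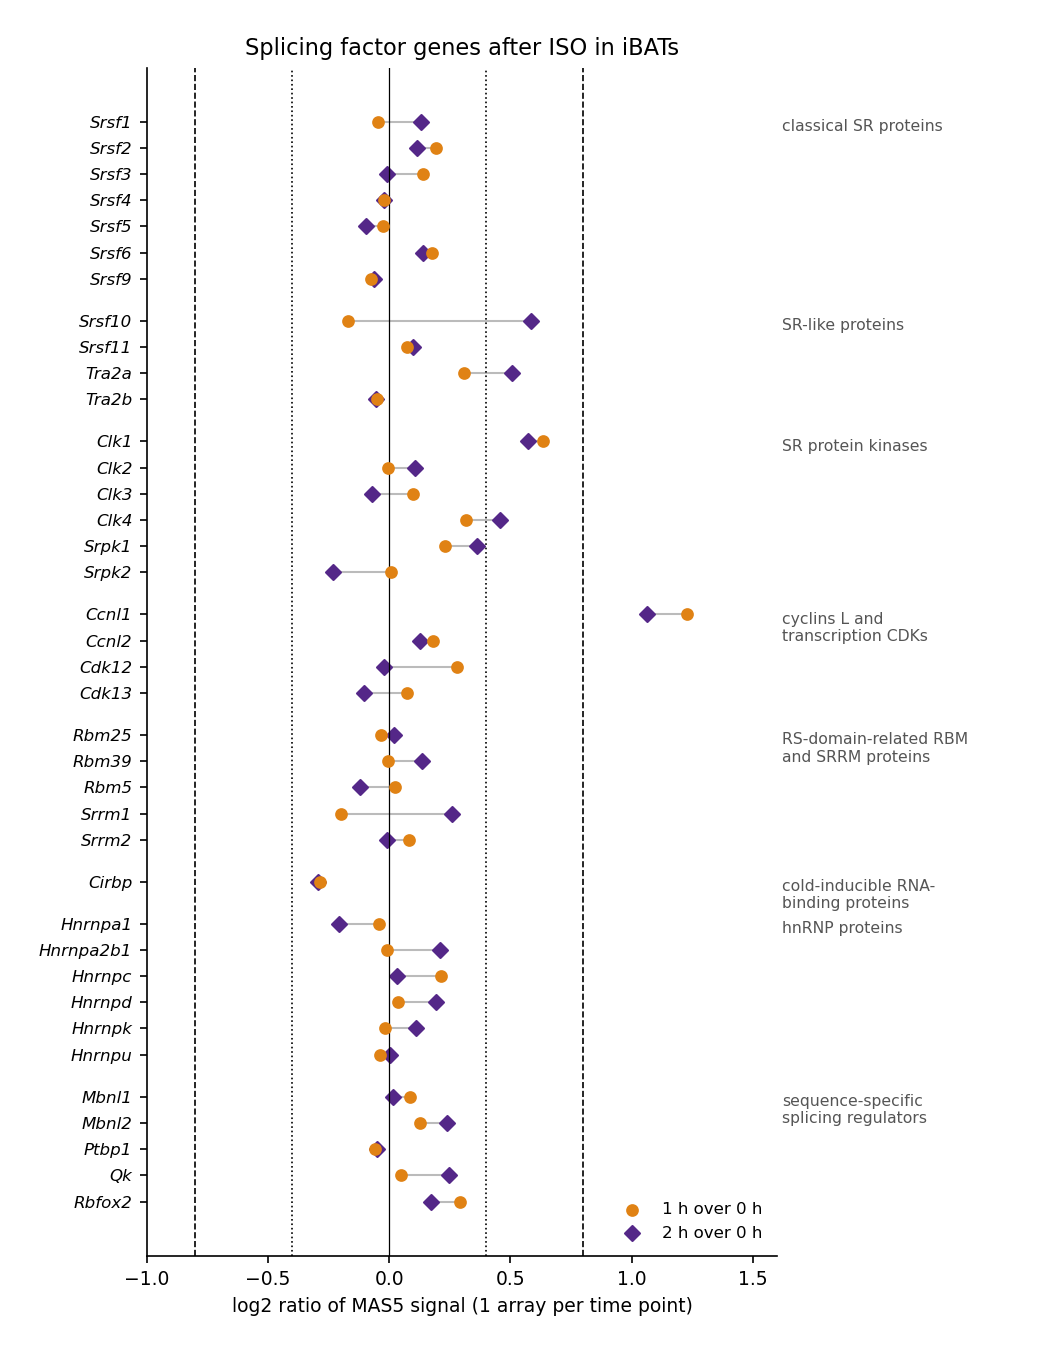
Log2 ratio of MAS5 signal to 0 h (horizontal axis) at 1 h (orange circles) and 2 h (purple diamonds) of ISO for the 38 members read, 1 row per gene in 8 groups by role, with a single array behind each time point. Dashed lines mark 2^0.8-fold and dotted lines 2^0.4-fold; Ccnl1 is the gene past the dashed line, at 1.23 and 1.06.

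Ccnl1, which encodes cyclin L1, read 868.0 before ISO, 2033.4 after 1 h and 1814.1 after 2 h on its single probe set. The rise was 2.34-fold by 1 h and 2.09-fold by 2 h, and these log2 ratios of 1.23 and 1.06 compare with genes of like signal whose spread was 0.11 and 0.17. At 1 h that ratio lay above 99.1% of all genes read. The signal rose within the first hour and was a little lower at 2 h than at 1 h (log2 ratio -0.16). Ccnl1 is among the ISO-induced genes that the study drew from these same arrays, so its direction here is not independent evidence.

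Its paralog Ccnl2, cyclin L2, had signals of 795.1, 900.9 and 869.2 on its main probe set, with log2 ratios to 0 h of 0.18 and then 0.13. Of its other kept probe sets, one was at -0.11 and then 0.01, and a dimmer one at 0.18 and then -0.24. The log2 ratio of Ccnl1 exceeded that of the main probe set of Ccnl2 by 1.05 at 1 h and 0.93 at 2 h. The kinase genes of this group stayed below the smaller size on their main probe sets. Cdk12, which phosphorylates the tail of RNA polymerase II during elongation, had signals of 116.1, 141.1 and 114.3. Cdk13, its close relative, had 167.9, 176.4 and 156.0 on its main probe set.

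Clk1, a dual-specificity kinase of SR proteins, read 678.8 before ISO, 1054.8 after 1 h and 1010.0 after 2 h, also on a single probe set. That is 1.55-fold and 1.49-fold, log2 ratios of 0.64 and 0.57 beside a spread of 0.12 and 0.19 among genes of like signal, and above 97.8% and 95.7% of all genes read. Both treated arrays lay well above the untreated one and close to each other, as for Ccnl1.

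Clk4, a kinase of the same family, was higher on each later array, with signals of 258.1, 321.8 and 354.7 and log2 ratios of 0.32 and 0.46. On its other kept probe set, which was dimmer (144.1, 157.3 and 171.9), the log2 ratio was 0.13 and then 0.25. Clk2 had signals of 201.1, 200.4 and 216.3, and Clk3 had 137.1, 146.7 and 130.6, so that neither moved by more than 0.11 on the log2 scale at either time. Within the family, the main probe sets of Clk1 and Clk4 stood above Clk2 and Clk3 at both times, by 0.22 to 0.64 on the log2 scale. The dimmer probe set of Clk4 lay nearer to them, at 0.13 beside 0.10 for Clk3 at 1 h. At 2 h it was at 0.25 beside 0.11 for Clk2.

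The SRPK kinases phosphorylate SR proteins mainly in the cytoplasm and lay on either side of 0 at 2 h. Srpk1 had signals of 303.3, 356.2 and 389.8 (log2 ratios 0.23 and 0.36), whereas its other kept probe set was at -0.19 and -0.11. Srpk2 had 549.6, 553.0 and 468.1, which is 0.01 and -0.23. The opposite signs of the probe sets of Srpk1 leave its direction unsettled.

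**Figure D2:**
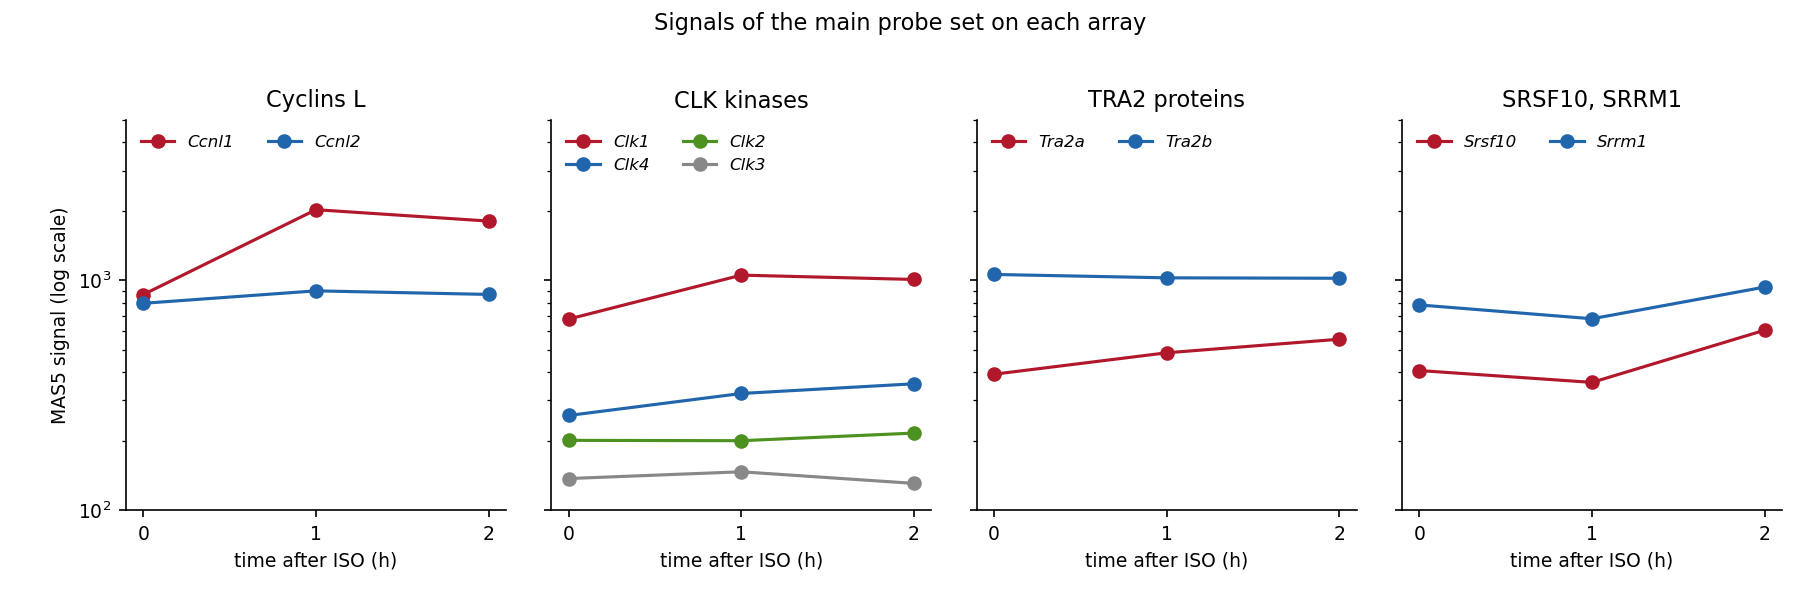
MAS5 signal (vertical axis, log scale) of the main probe set by hours of ISO (horizontal axis) for cyclins L, CLK kinases, TRA2 proteins and the genes Srsf10 and Srrm1, with a single array behind each point. Ccnl1 and Clk1 lie above 0 h at 1 h and at 2 h, Clk4 and Tra2a are highest at 2 h, and Srsf10 is above 0 h at 2 h alone; heights of different genes are not comparable levels.

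None of the 7 classical SR protein genes read reached the smaller size on its main probe set. Their log2 ratios ran from -0.07 to 0.19 at 1 h and from -0.10 to 0.14 at 2 h, with medians of -0.02 and -0.01. Srsf2, an activator of exon inclusion, had signals of 1678.1, 1916.9 and 1814.5, and Srsf5 had 1328.5, 1304.3 and 1241.7. Srsf1, the founding member of the family, had 1909.8, 1847.9 and 2088.4, and Srsf4 had 455.6, 448.2 and 449.1. Srsf6 (1175.6, 1326.6 and 1296.0) and Srsf9 (685.5, 651.3 and 656.6) lay within the same narrow band, and so did Srsf3 at 1589.0, 1750.2 and 1580.3.

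Of the 4 SR-like genes Tra2a and Srsf10 reached the smaller size at 2 h. Tra2a, a homolog of the fly sex determination factor transformer-2, had signals of 390.4, 484.0 and 554.6. These are log2 ratios of 0.31 and then 0.51, beside a spread of 0.14 and 0.23 among genes of like signal. A dimmer kept probe set of Tra2a moved the same way, with signals of 148.7, 170.2 and 228.9 and log2 ratios of 0.19 and 0.62. Tra2b, its paralog, had 1062.0, 1026.6 and 1022.1 on the main probe set, so that the log2 ratio of Tra2a was higher by 0.36 at 1 h and 0.56 at 2 h. The other kept probe sets of Tra2b were at 0.11 and then 0.07, and, on a dim one (103.7, 127.3 and 93.8), at 0.30 and then -0.14. At 1 h the ratios of the kept probe sets of Tra2a and Tra2b therefore overlap. Srsf11 had 1175.4, 1235.1 and 1256.9.

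Srsf10, a splicing repressor when dephosphorylated, had signals of 405.0, 359.7 and 607.2 on its main probe set. It lay below 0 h at 1 h (log2 ratio -0.17) and above it at 2 h (0.58), and the step of 0.76 from 1 to 2 h was above 99.2% of all genes read. Its other 3 kept probe sets did not follow, with log2 ratios at 2 h of 0.01, -0.04 and -0.30. Over the kept probe sets of Srsf10 the median at 2 h was -0.02.

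From 1 to 2 h no member moved by 2^0.8-fold in either direction, where 0.667% of all genes were higher and 0.319% lower by that size. At 2^0.4-fold Srsf10 and Srrm1 were higher (all genes 3.78%) and none was lower (3.87%), and the 38 divided evenly into 19 above and 19 below 0. Neither gene reached that size in the median of all its kept probe sets (-0.08 for Srsf10 and 0.12 for Srrm1). Srrm1, an RS-rich coactivator of splicing, had signals of 782.1, 681.0 and 935.9 on its main probe set. Relative to 0 h its log2 ratio was -0.20 and then 0.26, while the other 3 kept probe sets of Srrm1 ran from -0.05 to 0.22 at 1 h and from 0.09 to 0.17 at 2 h.

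β-adrenergic receptors raise cyclic AMP, and CREB, a factor that responds to it, binds the element TGACGTCA (the full CRE), for which the promoters of the members were searched on both strands. The windows are those of RefSeq on GRCm38.p6, 250 bases before and 50 bases from the annotated start, and 37 of the 40 genes have at least 1. Clk1, Rbfox2 and Rbm3 were not matched. A full CRE was present in 3 of the 37, and these were Ccnl1, Clk4 and Tra2a. It is found in 1.79% of all 32851 windows, in 3.90% of the 5694 genes read that have a window, and in 8.33% of the 36 members read that have one. The stretches of 120 bases before the start are shown for these genes and for Ccnl2 and Tra2b, the paralogs of Ccnl1 and Tra2a that moved less. Clk2 and Clk3, paralogs of Clk4 that moved less, also hold no full CRE and are not shown. Capitals mark the full CRE in the first 3 and its part TGACG, or CGTCA on the other strand, in Ccnl2 and Tra2b, which hold no full CRE.
Ccnl1, chr3:65958250-65958369, minus strand: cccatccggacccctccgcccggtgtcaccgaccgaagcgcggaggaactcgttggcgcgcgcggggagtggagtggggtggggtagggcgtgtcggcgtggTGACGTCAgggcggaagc
Clk4, chr11:51262994-51263113, plus strand: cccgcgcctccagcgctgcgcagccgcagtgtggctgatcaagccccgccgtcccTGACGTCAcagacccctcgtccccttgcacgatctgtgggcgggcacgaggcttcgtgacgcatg
Tra2a, chr6:49264053-49264172, minus strand: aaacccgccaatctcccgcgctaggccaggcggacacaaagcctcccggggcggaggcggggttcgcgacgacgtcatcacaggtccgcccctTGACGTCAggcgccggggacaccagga
Ccnl2, chr4:155812369-155812488, plus strand: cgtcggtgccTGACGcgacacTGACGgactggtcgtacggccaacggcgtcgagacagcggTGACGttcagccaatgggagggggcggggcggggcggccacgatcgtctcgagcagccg
Tra2b, chr16:22266006-22266125, minus strand: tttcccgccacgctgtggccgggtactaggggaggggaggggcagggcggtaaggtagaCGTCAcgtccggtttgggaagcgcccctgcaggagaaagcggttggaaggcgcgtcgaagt

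The full CRE begins at position -18 in Ccnl1, -27 in Tra2a and -65 in Clk4, where -1 is the base just before the annotated start. The annotated loci of Ccnl1, Ccnl2 and Tra2a reach further upstream than the start used for the window. On the main probe sets 4 members with a window were at least 2^0.4-fold higher at 1 or 2 h. Of these 3 held a full CRE and Srsf10 did not, and none of the other 32 held one. This split rests on the choice of probe set. In the median of kept probe sets Clk4, with a full CRE, is at 0.36 at 2 h and so below that size. Cdk13, without one, then passes it and Srsf10 no longer does. Cdk13 passes only through a dim probe set (49.9, 83.4 and 108.2), while its main one is at 0.07 and -0.11. With signals below 100 set to 100, the dim one is at 0.0 and 0.11. Clk1 has no window, and the members were chosen with earlier results known. A link between the element and the rise was not tested. The part TGACG, which lies inside the full element, was present in all 4 members higher on the main probe set and in 17 of the other 32. It is found in 20.81% of all windows and in 23.05% of all genes with a window. Its share among the genes read was not computed. The AP-1 element TGANTCA was found in 1 member, Hnrnpa1, and in 8.97% of all genes with a window (7.81% of windows). Over the whole array 222 genes read held a full CRE. Of these, 5.41% were at least 2^0.4-fold higher at 1 h and 10.36% at 2 h, beside 3.60% and 6.82% of genes without it. At 2^0.8-fold the shares were 2.7% and 3.6% with it, beside 1.46% and 2.58% without it. These differences were not tested. A match is a run of letters and not a bound site, and binding was not examined here.

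**Figure D3:**
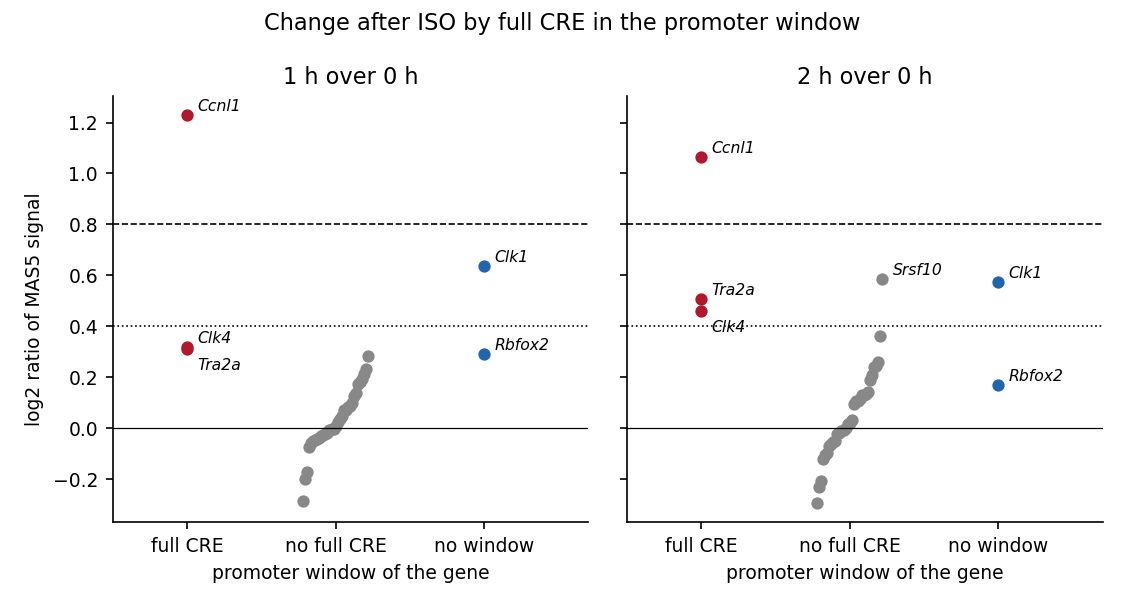
Log2 ratio of MAS5 signal to 0 h (vertical axis) at 1 h (left) and 2 h (right) of ISO by promoter (horizontal axis), 1 point per gene: the 36 members read that have a RefSeq window, with or without a full CRE, and in a column of their own Clk1 and Rbfox2, which have no window here. Dotted and dashed lines mark 2^0.4-fold and 2^0.8-fold; the 3 genes with a full CRE, Ccnl1, Clk4 and Tra2a, lie at 0.31 or more at 1 h and at 0.46 or more at 2 h. Points without a full CRE are spread sideways in order of value.

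Among the RS-related genes Rbm25, Rbm39, Rbm5 and Srrm2 had log2 ratios between -0.03 and 0.08 at 1 h and between -0.12 and 0.13 at 2 h on their main probe sets. Srrm2, a scaffold of nuclear speckles, had signals of 1982.8, 2100.7 and 1967.7. Rbm39, a cofactor related to U2AF, had 1040.3, 1037.2 and 1141.5. Cirbp, a cold-inducible RNA-binding protein, was the member with the lowest ratio at both times, with signals of 164.6, 135.1 and 134.4 and log2 ratios of -0.28 and -0.29, beside a spread of 0.22 and 0.26 among genes of like signal.

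The hnRNP genes, whose products coat nascent RNA and often silence exons, stayed below the smaller size on their main probe sets. Hnrnpk had signals of 2960.9, 2923.7 and 3192.4, Hnrnpa2b1 had 2404.1, 2390.1 and 2775.5, and Hnrnpu had 2021.6, 1968.8 and 2024.6. The other kept probe sets of Hnrnpu ran from -0.47 to -0.01 at 2 h, and the lowest had signals of 387.4, 341.9 and 279.2. Over the main probe sets of the 6 genes the log2 ratio ran from -0.04 to 0.21 at 1 h and from -0.21 to 0.21 at 2 h. The sequence-specific regulators ran from -0.06 to 0.29 and from -0.05 to 0.25. Ptbp1, a repressor of many tissue-specific exons, had 568.4, 545.9 and 548.4, and Mbnl1, which acts in the switch to adult splicing, had 1902.1, 2018.5 and 1923.3. Rbfox2 was read through the 1 h array alone, with signals of 82.0, 100.3 and 92.3, and its other 3 probe sets stayed below 100.

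Probe sets of the same gene differed by 0.5 or more on the log2 scale in at least 1 comparison for 11 of the 26 members with more than 1 kept probe set, and the brightest then does not stand for all of them. The same share over all genes was not computed, so the count cannot be read as particular to these members. For Cdk13 a second probe set went from 49.9 to 83.4 and 108.2, a log2 ratio of 1.12 at 2 h, where the main one was at -0.11. It passed the filter through the 2 h array alone, and with signals below 100 set to 100 its ratio is 0.11. For Rbm39 the other 7 kept probe sets ran from -0.18 to 0.54 at 1 h and from -0.07 to 0.75 at 2 h. The one at 0.75 had signals of 148.5, 216.1 and 249.6.

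Srsf3 was level on 5 of its 6 kept probe sets at 1 h, within 0.14 of 0 on the log2 scale, while the dimmest had signals of 101.5, 158.5 and 152.4 and log2 ratios of 0.64 and 0.59. Srsf6 went the other way: beside 0.14 on the main probe set at 2 h, its other 3 were at -0.30, -0.48 and -0.26. The one at -0.48 had signals of 978.5, 802.6 and 701.1, so the direction of Srsf6 is not settled.

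Hnrnpa1, Qk, Srrm2, Hnrnpa2b1 and Ccnl2 also had probe sets that differed by this size. Hnrnpa1 had signals of 744.5, 723.0 and 644.1 on the main probe set and 543.5, 542.6 and 724.0 on the other, log2 ratios of -0.21 and 0.41 at 2 h. Qk, which encodes quaking, had 1147.5, 1185.9 and 1360.1 on the main one, and its kept probe sets ran from -0.17 to 0.42 at 2 h. Srrm2 ran from -0.18 to 0.40 at 1 h, and Hnrnpa2b1 and Ccnl2 differed from 1 to 2 h, by 0.55 between their extremes for the first and 0.54 for the second. Which exons or ends of the transcripts these probe sets read was not examined here.

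**Figure D4:**
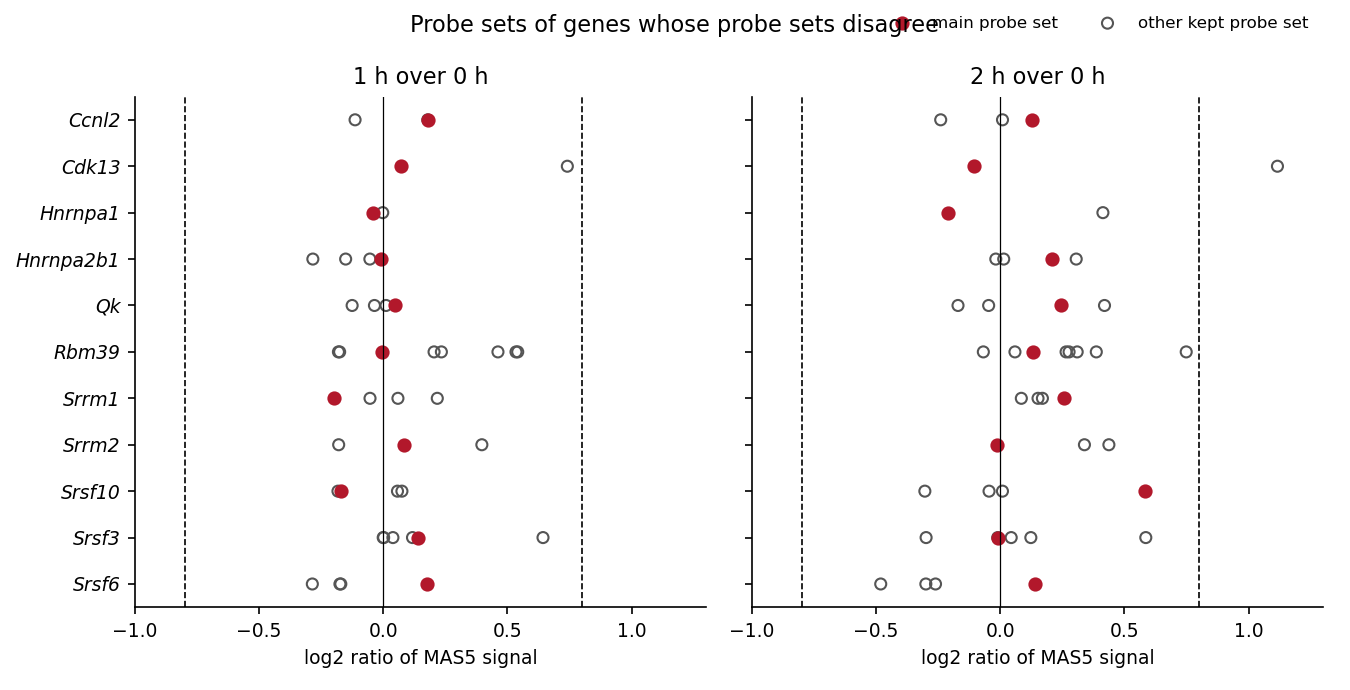
Log2 ratio of MAS5 signal to 0 h (horizontal axis) at 1 h (left) and 2 h (right) of ISO for every kept probe set of the 11 members whose probe sets differ by 0.5 or more in 1 of 3 comparisons, 1 row per gene. Red points are the main probe set, open circles the others and dashed lines 2^0.8-fold; the open circle of Cdk13 at 1.12 comes from a probe set with a 0 h signal of 49.9.

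Over the 64 kept probe sets of members other than the main ones, 5 were at least 2^0.4-fold higher and none was that much lower at 1 h, beside 4.63% and 3.54% of the 3501 such probe sets of all genes. At 2 h 8 were higher and 2 lower, beside 11.0% and 8.65%. The medians of their log2 ratios were 0.01 and then 0.05. These are counts of probe sets and not of genes: those higher at 1 h belong to Rbm39, with several, and to Cdk13 and Srsf3. The one of Cdk13 was below 100 at 0 and 1 h.

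The rest of the splicing machinery, from lists of genes that are no members, stayed below 2^0.8-fold throughout. For the counts at 2^0.4-fold that follow, 3.89% of all genes read were higher and 3.13% lower at 1 h. At 2 h these shares were 7.31% and 9.63%. Of 53 core spliceosome genes read none was 2^0.4-fold higher and 1 was lower at 1 h, 3 were higher and 1 lower at 2 h, and their median log2 ratio was -0.01 and -0.07. The largest sizes were those of Ddx46, a helicase of the U2 snRNP, at 200.9, 161.4 and 138.9, and of U2af2, which binds the polypyrimidine tract, at 155.5, 109.8 and 137.4. The 3 higher at 2 h were Isy1, Dhx15 and Smndc1, at 0.40 to 0.44. Of 27 other RS-rich and nuclear speckle genes 1 was higher and 1 lower at each time. Neat1, the RNA scaffold of paraspeckles, was higher at both, with signals of 1495.9, 2000.2 and 2071.3 (0.42 and 0.47 as log2 ratios), and Cherp, an RS-rich U2-associated protein, had 269.8, 195.1 and 283.3, lower at 1 h alone. The gene lower at 2 h was Sfswap (log2 ratio -0.45).

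Of 17 other hnRNP genes none reached 2^0.4-fold, with medians of 0.11 and 0.09, and Hnrnph2 (898.7, 925.2 and 1160.2) and Syncrip (371.7, 455.9 and 465.3) had the largest sizes. Of 20 other splicing regulators 2 were higher at each time (10.0%, against 3.89% and 7.31% of all genes) and none lower. Rbm47 had signals of 76.0, 81.8 and 128.1. It passed the filter through the 2 h array alone, and where its dim signals are raised to 100 the log2 ratio at 2 h is 0.36, below the smaller size. Rbm15, which recruits RNA methylation, had 100.8, 146.1 and 148.2 and was higher at both times. The other gene higher at 1 h was Tial1 (0.41). Of 23 other kinases, phosphatases and importins of SR proteins and of the polymerase tail, 1 was higher at each time and none lower. That was Ccnt1, the cyclin of the elongation kinase P-TEFb, at 484.4, 671.7 and 678.7 (0.47 and 0.49), while Ppp1r8, a regulator of protein phosphatase 1, had 351.6, 299.1 and 442.4. A full CRE was present in 5 of 120 such genes read with a window (Snrpg, Cdc5l, Bcas2, Xab2 and Larp7), whose log2 ratios ran from -0.01 to 0.17 at 1 h and from -0.09 to 0.21 at 2 h.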

How the data were processed

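Labelled cRNA from total RNA of iBATs was hybridized by the authors to Affymetrix Mouse Genome 430 2.0 arrays, 1 per time point. The deposited values are MAS5 signals (named in the submitters' processing notes), a linear intensity per probe set. Their mean is 100.0 on each array after 2% is cut from each end. The deposited table still holds the absent and dim probe sets that the methods set aside. The number of arrays limits the precision, and no p-value was computed. The groups are those of the labels. The members and lists were chosen with earlier results of these data known.

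Of 45101 probe sets, 34958 had 1 gene symbol in the archive's annotation, 932 carried more than 1 and were left out, and 9211 have no entry here. 34754 were matched by gene identifier to RefSeq (GRCm38.p6), with 0 symbols changed. A probe set was kept (11317) where any array gave it 100 or more, and the kept one with the highest mean signal stood for each of 6896 genes. Log2 ratios were computed in Python 3.11.15 (numpy 2.4.6, pandas 2.3.3, matplotlib 3.10.9), with 0.1 in place of 0. The spread is 1.4826 times the median absolute deviation in 20 bins of mean signal. The calculation was tested on simulated data. Members are named with 3 signals when past 2^0.4-fold in any comparison, among the brightest or dimmest, a CLK kinase, cyclin L or cold-inducible gene, or with probe sets that differ by 0.5, and of each other list the genes past 2^0.8-fold or the 2 of largest size. Srsf1, Srsf2, Srsf4, Srsf5, Srsf9, Srsf11, Tra2b, Srpk1, Srpk2, Hnrnpu, Ptbp1 and Mbnl1, as well as the genes with a full CRE, Isy1, Dhx15, Smndc1, Sfswap and Tial1, were named to complete a group after their values were seen. RefSeq promoters were searched on both strands. The 11 alternatives were other filters, treatments of low signal, scalings (median, quantile, and cyclic loess by R 4.3.3 and limma 3.58.1), probe sets and a threshold of 2-fold.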

Additional observations from a re-analysis of the deposited data

How the results depend on the processing

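The count of members past 2^0.8-fold, 1 at 1 h and 1 at 2 h, was the same under 10 of the 11 alternatives and was 0 at both times with probe sets of suffix _x_at, _s_at or _a_at left out, since the single probe set of Ccnl1 carries such a suffix and 28 members were then read. From 1 to 2 h the count was 0 under all 11. Under the 10 alternatives that change a ratio, the median log2 ratio of members lay between 0.01 and 0.14 at 1 h and between -0.01 and 0.12 at 2 h, beside 0.04 and 0.10 as reported. Scaling to the same median moves that of all genes at 1 h from -0.02 to 0.08, and 4 members are then at least 2^0.4-fold higher in place of 2, as Clk4 (0.42) and Tra2a (0.41) join. Where its probe set was kept, Ccnl1 lay between 1.19 and 1.33 at 1 h and between 1.02 and 1.08 at 2 h, and Clk1 between 0.61 and 0.73 and between 0.54 and 0.59. Taking for each gene the median of its kept probe sets, 3 members at 1 h and 4 at 2 h were at least 2^0.4-fold higher and none from 1 to 2 h (2, 5 and 2 as reported). Clk4 (0.36) and Srsf10 (-0.02) then fall below that size at 2 h, and Cdk13 joins at 1 h (0.41) and 2 h (0.51) through its dim probe set. With the suffixed probe sets left out, none was 2^0.4-fold higher at 1 h, and 2 were at 2 h (Srsf10 and Tra2a). From 1 to 2 h Srsf10 was then higher and Tra2b lower (-0.44). Ccnl1, Clk1 and Clk4 have suffixed probe sets only, so they were not read under that setting. From 1 to 2 h scaling to the same median leaves 1 member, Srsf10. No paired analysis was possible because each time point has 1 array. Signals below about 100 lie near the background of the array, which limits Cdk12, Cirbp, Clk3 and Rbfox2 most.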

Other observations

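Transcripts of SR genes that include a premature stop are degraded by nonsense-mediated decay, whose factors were listed as well. Of 15 genes of that pathway and of the exon junction complex, 10 had a probe set under their symbol and 5 were read. None of the 5 reached 2^0.4-fold at 1 or 2 h, where 3.89% and 7.31% of all genes were higher and 3.13% and 9.63% lower. Their median log2 ratio was 0.02 at both times. Upf2 had signals of 231.3, 234.8 and 251.0, Smg1, the kinase of the pathway, had 287.0, 250.7 and 271.4, and Smg5 had 116.5, 132.2 and 111.2. Rbm8a, a core protein of the exon junction complex, had 929.5, 905.0 and 941.8. Casc3 had 107.4, 114.1 and 121.6.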
